A study of Mus musculus with 10 samples.

Results

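This comparison set liver from mice on a high-fat diet on day 3 of a weekly calorie restriction cycle against liver from mice on the same diet that ate without limit. The libraries were chosen by sample title alone and make up 7 of the 10 in the series: 3 of the ad libitum group (AL, numbered 2 to 4 in the labels) and 4 of the low-calorie group (LC, numbered 1 to 4). The cycle took 50% off intake on day 1, 70% on days 2 and 3 and 50% again on day 4, and food was unrestricted on days 5 to 7, so the LC livers were taken on the last of a pair of days at 70%. The other 3 libraries, from refed mice on day 7 of the cycle (RF), entered the model to help estimate the spread. They also entered the low-count filter, the scaling, the implied transcript lengths and the mean levels by which genes were binned. Every group, the controls included, was fed the high-fat diet, which the study used to induce obesity, so no lean liver enters the comparison. The labels used here give no genotype, strain, sex, age, number of cycles or hour of collection. They also do not say that the libraries of a group came from separate animals, and the p-values therefore cover only the scatter among these libraries, which may be technical. The question was which genes other than the well-known lipid genes differed in the restricted liver, over all 12789 genes with enough reads of the 17359 in the table.

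The hepatocyte, the main cell of the liver, secretes most plasma proteins, which are threaded into the endoplasmic reticulum (ER), folded there by chaperones and carried in coated vesicles to the Golgi. It also burns amino acids and fatty acids in its mitochondria and clears drugs, bile acids and hormones with oxidising and conjugating enzymes. When food is short, insulin falls and glucagon and glucocorticoids rise, and the liver moves from storing nutrients to releasing them.

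The libraries held 13871500 to 15899500 expected counts each, and the submitters' RNA integrity numbers ran from 6.6 to 8.5. The 10 most abundant genes took 16.7% to 20.2% of the counts in AL and 14.6% to 15.3% in LC, and the scaling factors of the trimmed mean of M values (TMM) were 0.83 to 0.95 in AL and 1.06 to 1.18 in LC. On the first principal component the AL libraries lay at -37.5 to -11.1 and the LC libraries at 27.1 to 44.5, with AL replicate 2 the nearest to LC. Levels are given as CPM, a gene's count relative to the TMM-scaled total of its library, in the order AL replicates 2, 3 and 4 and LC replicates 1, 2, 3 and 4. Differences are fitted log2 fold changes, LC minus AL, ± standard error, with the Benjamini-Hochberg adjusted p of edgeR's quasi-likelihood test, and a gene is said to rise or fall where that adjusted p was below 0.05. The tissue matched its label: Alb, which encodes albumin, held 50759.6, 58785 and 67104 CPM in AL and 39155, 34958, 43286 and 29505 in LC.

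At LC, 2045 genes rose (16.0% of those tested) and 1989 fell (15.6%), together 31.5%. Of these, 486 risers and 332 fallers changed at least 2-fold, and 26 and 44 at least 4-fold. The balance of the calls changed with abundance, taken as the average of the AL, LC and RF means. Of the 260 genes with a mean of 500 CPM or more, 115 fell and 12 rose, while of the 1779 under 2 CPM, 53 fell and 184 rose. The split also followed transcript length as implied by the deposited files. The genes were placed in 5 bins of equal size by length. In the shortest bin 28.6% fell and 5.56% rose, and in the longest 6.38% fell and 25.5% rose. Scaling by library totals alone raised the median of all genes by 0.31, from 0.05 to 0.36 on the log2 scale, and turned the split to 4395 higher and 686 lower, so each direction below is relative to the TMM scaling. With library totals, 11 of the fallers named here were not called, with adjusted p from 0.063 to 0.23: Alb, Hsp90b1, Canx, Dnajc3, Hspd1, Hspe1, Rps2, Snrpa, Rheb, Pparg and H2-Eb1. Leaving out AL replicate 3 gave 959 risers and 1151 fallers, and leaving out AL replicate 4 gave 1196 and 1361. For the gene groups below, the counts without a library are given where the count is of 5 or more genes and moved by over 1.5 times; counts of 4 or fewer often moved by as much. The bars for each gene group show these shares beside those of all genes.

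**Figure D1:**
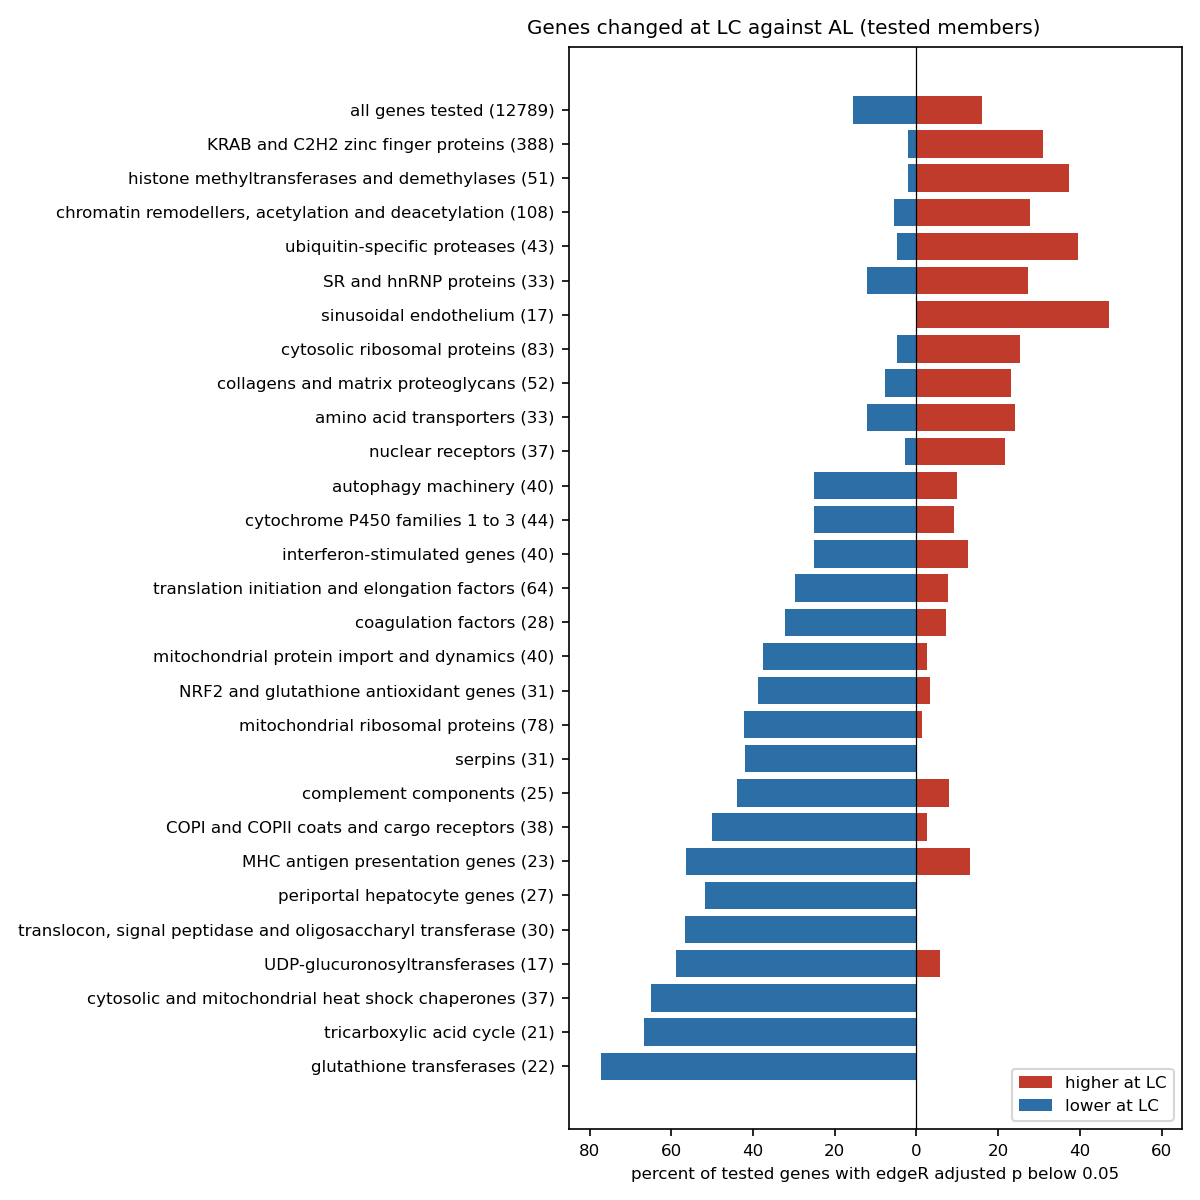
Share of the tested members of each gene group that rose (right) or fell (left) at LC against AL, in percent, edgeR adjusted p below 0.05; the number of tested members stands beside each name. The top bar gives all 12789 genes, with 16.0% higher and 15.6% lower.

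The largest falls and rises were ranked among called genes with 5 CPM or more in the higher group and no overlap between AL and LC. Genes named only by a clone or model number were left out. Outside lipid metabolism, the 20 largest falls included Cfd, complement factor D, a protease made mostly by fat cells, and Aqp8, a water channel. Cfd held 111, 142 and 49.2 CPM in AL and 2.83, 10.1, 3.66 and 18.5 in LC and fell by 3.53 ± 0.66 (adjusted p = 0.0055). Aqp8 held 64.6, 114 and 260.1 CPM in AL and 15.6, 40.1, 21.1 and 10.3 in LC and fell by 2.75 ± 0.65 (adjusted p = 0.015). The AL libraries differed among themselves by more than 2-fold for both, and none reached the LC range; Aqp8 was not called without AL replicate 4 (adjusted p = 0.058). Slc10a2, the sodium-dependent bile acid transporter, held 49.8, 57.7 and 42.4 CPM in AL and 5.21, 13.2, 4.90 and 7.53 in LC, a fall by 2.70 ± 0.29 (adjusted p = 0.00025). Acmsd, which steers tryptophan breakdown away from NAD synthesis, went from 6.60, 8.51 and 7.17 CPM in AL to 0.879, 2.83, 1.18 and 0.565 in LC and fell by 2.44 ± 0.44. Kynu, kynureninase of the same pathway, fell by 1.37 ± 0.14. All LC libraries lay below all AL libraries for these 3 genes. C9, the pore-forming component of complement, had the smallest p of any faller, with 366, 299.6 and 247 CPM in AL and 79.6, 83.96, 88.3 and 69.5 in LC (a fall by 1.92 ± 0.15, adjusted p = 3.6e-05). Aldh1b1, a mitochondrial aldehyde dehydrogenase, fell by 2.23 ± 0.36, Ppa1, the cytosolic pyrophosphatase, by 1.40 ± 0.11, and Lgals1, the lectin galectin-1, by 1.78 ± 0.15. Ube2l6, the conjugating enzyme for the ubiquitin-like protein ISG15, fell by 1.36 ± 0.14, and Echdc1, a metabolite repair enzyme, by 2.38 ± 0.24.

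Under the same rule, the largest rises were of 2 cytochromes P450. Cyp2b9 held 2.52, 14.8 and 7.59 CPM in AL and 25.6, 29.98, 90.96 and 43.8 in LC and rose by 2.52 ± 0.74 (adjusted p = 0.034), and Cyp2j9 went from 48.9, 21.7 and 15.9 to 223, 99.1, 145 and 146 CPM and rose by 2.41 ± 0.41 (adjusted p = 0.003). No library overlapped between the groups for either gene, but Cyp2b9 was not called with AL replicate 2 left out (adjusted p = 0.076), with AL replicate 4 left out (0.12), with LC replicate 3 left out (0.054), with RF replicate 1 or 3 or all RF libraries left out (0.055, 0.0504 and 0.06), or with no low-count filter (0.06). Dgkh, a diacylglycerol kinase, had the smallest p of any riser: 9.05, 7.10 and 9.86 CPM in AL and 31.1, 26.6, 33.2 and 35.1 in LC, a rise of 1.86 ± 0.16 (adjusted p = 5.1e-05). Pcgf2, a Polycomb group ring finger protein, rose by 2.12 ± 0.23 from 6.60, 3.59 and 5.24 to 27.6, 17.1, 25.4 and 19.5 CPM. Peg3, an imprinted zinc finger gene expressed from the paternal allele, held 21.9, 21.7 and 20.3 CPM in AL and 96.8, 51.1, 76.9 and 68.6 in LC and rose by 1.78 ± 0.18. None of these 3 overlapped between the groups. Il22ra1, the receptor through which hepatocytes sense interleukin-22, rose by 1.91 ± 0.36, Cyp46a1, the cholesterol 24-hydroxylase, by 1.83 ± 0.22, and Lgals4, galectin-4, by 1.39 ± 0.14. Cd55, which protects cells from complement, rose by 1.03 ± 0.12, with 22.3, 21.9 and 26.8 CPM in AL and 50.8, 45.8, 48.5 and 48.3 in LC. Ovgp1, oviductal glycoprotein, rose by 2.17 ± 0.27, and Rcor3, a corepressor that works with the histone demethylase LSD1, by 1.66 ± 0.20. Cux2, a transcription factor linked to female-pattern liver expression, rose by 2.40 ± 0.68 with 2.03, 2.69 and 4.64 CPM in LC replicates 2, 3 and 4 and a far higher level in replicate 1, and its adjusted p was 0.067 without AL replicate 2, 0.1 without AL replicate 3 and 0.063 without AL replicate 4.

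Many genes for entry into the ER and for transport out of it fell. Of 30 tested genes for the translocon, signal peptidase and oligosaccharyl transferase, which pull new chains into the ER, trim their signal and add sugar, 17 fell and 0 rose (median -0.45 beside 0.05 for all genes). Of 38 genes for COPI and COPII coats and cargo receptors, 19 fell and 1 rose (median -0.39). Tram1, which helps chains enter the translocon, held 116, 121 and 107 CPM in AL and 56.3, 60.2, 65.6 and 56.99 in LC, a fall by 0.94 ± 0.11 (adjusted p = 0.00018). Spcs3, a signal peptidase subunit, went from 59.99, 65.3 and 53.7 to 30.02, 29.1, 33.5 and 27.1 CPM, and Rpn1, an oligosaccharyl transferase subunit, from 141, 145 and 144 to 79.2, 79.8, 86.7 and 72.1 CPM. For all 3 the AL libraries stayed well above every LC library. Sec61a1, the pore itself, fell by 0.72 ± 0.12, Sec13, a COPII coat protein, by 1.00 ± 0.13, and Lman1, the cargo receptor for clotting factors V and VIII, by 0.82 ± 0.12. The 1 riser was Sec31b, the less common paralog of the COPII outer coat, from 12.2, 7.65 and 10.8 CPM in AL to 23.4, 22.6, 20.3 and 17.5 in LC (1.03 ± 0.18).

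Genes of protein folding inside the ER were among the largest falls and the smallest p values. Sdf2l1, a cofactor of the chaperone BiP, held 24.8, 18.5 and 13.4 CPM in AL and 4.52, 3.20, 3.50 and 2.57 in LC, a fall by 2.45 ± 0.33. Pdia6, a disulfide isomerase, was among the 10 fallers with the smallest p, at 190.0, 208 and 191 CPM in AL and 78.6, 85.1, 88.3 and 83.7 in LC (-1.23 ± 0.12, adjusted p = 0.00014). Both genes were lower in each LC library than in any AL library.

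Promoters of such genes often carry the ER stress element (ERSE), made of the letters CCAAT, 9 bases of any kind and then CCACG, or its short form ERSE-II, ATTGG, 1 base and CCACG, at which the factors ATF6 and NF-Y can bind. Promoters of 300 bases, 250 before and 50 after the start, were taken from RefSeq on build GRCm38.p6, which differs from the GRCm39 of the submitters' notes, and were found for 10242 of the tested genes. Either form, on either strand, was in 29 of them (0.283%). Those 29 genes were taken by the letters alone, but the element itself was chosen with the results for the chaperones known. Of the 29, 11 fell and 3 rose, where 15.6% and 16.0% of all tested genes did. The same 11 and 3 genes made up 0.680% of the fallers with a promoter and 0.183% of the risers with one. The median of the 29 was -0.28, beside 0.05 for all genes. It was 0.02 with library totals and 0.02 with limma on log2(FPKM + 1), where the medians of all genes were 0.36 and 0.22. No riser was left among the 29 when AL replicate 3, AL replicate 4 or LC replicate 1 was dropped. In all, 16 motifs were searched, and this one and the heat shock element below are described because of the chaperones. The stretches below show the element in 6 fallers that are ER chaperones, folding enzymes or lectins and, for contrast, in Pan2, a deadenylase subunit that rose. Each runs 5′ to 3′ on the gene's own strand, upstream of its start, with both blocks of the element in capitals, and blocks CGTGG and ATTGG mark an element that lies on the opposite strand.
Calr, chr8:84847045-84847123, minus strand: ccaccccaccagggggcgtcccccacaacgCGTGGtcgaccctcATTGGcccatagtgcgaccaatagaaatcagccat
Pdia6, chr12:17266461-17266539, plus strand: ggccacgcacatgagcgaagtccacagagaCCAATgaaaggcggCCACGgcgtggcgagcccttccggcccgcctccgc
Hspa5, chr2:34771995-34772073, plus strand: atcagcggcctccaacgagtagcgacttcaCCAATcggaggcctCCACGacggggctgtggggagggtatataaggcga
Dnajc3, chr14:118937797-118937875, plus strand: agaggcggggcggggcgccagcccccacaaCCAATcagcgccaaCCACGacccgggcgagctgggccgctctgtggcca
Hsp90b1, chr10:86705503-86705686, minus strand: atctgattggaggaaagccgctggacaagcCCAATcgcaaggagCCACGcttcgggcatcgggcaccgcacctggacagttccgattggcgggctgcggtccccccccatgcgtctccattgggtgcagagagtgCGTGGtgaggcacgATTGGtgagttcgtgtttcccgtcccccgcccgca
Canx, chr11:50325770-50325848, minus strand: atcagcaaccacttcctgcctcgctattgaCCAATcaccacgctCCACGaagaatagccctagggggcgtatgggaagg
Pan2, chr10:128303257-128303334, plus strand: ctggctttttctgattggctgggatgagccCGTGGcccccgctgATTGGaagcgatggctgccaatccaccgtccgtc
A match to these letters is a description of the sequence and no measure of binding.

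Among the 29, described because they hold the element, the calcium-binding chaperone Calr had the deepest fall of the ER proteins: 624, 594 and 469 CPM in AL and 242, 229.8, 192 and 166 in LC (-1.44 ± 0.16, adjusted p = 0.00016). Hspa5, which encodes BiP, the main ER Hsp70, held 512, 586 and 321 CPM in AL and 203, 269, 206 and 258 in LC and fell by 1.01 ± 0.26, with adjusted p 0.067 without AL replicate 3. Hsp90b1, the ER Hsp90, went from 926, 744 and 577 to 482, 528, 491 and 475 CPM. Dnajc3, a cochaperone of BiP, fell by 0.69 ± 0.15, and Dnajb11, another, by 0.79 ± 0.15. Canx, the membrane lectin calnexin, fell by 0.55 ± 0.17, a call lost without AL replicate 3 (adjusted p = 0.13), AL replicate 4 (0.077), LC replicate 1 (0.065) or LC replicate 3 (0.054). Not every holder fell: Herpud1, part of the ER degradation machinery, differed by -0.31 ± 0.23 (adjusted p = 0.33), Creld2, an ER folding protein, by -0.76 ± 0.48 (adjusted p = 0.26), and Ero1b, an ER thiol oxidase, by -0.11 ± 0.18 (adjusted p = 0.66). Pan2 rose by 0.69 ± 0.22, from 97.5, 58.4 and 47.7 to 119, 130.5, 81.5 and 108 CPM, and was no longer called with AL replicate 3 left out (0.14) or AL replicate 4 (0.12) or LC replicates 1 (0.071), 2 (0.069) or 4 (0.058), nor with the length trend removed (0.068) or with the AL and LC libraries alone (0.053).

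Chaperones of the cytosol and mitochondria fell with those of the ER. Of 37 heat shock genes tested, 24 fell and 0 rose, with a median of -0.61, which was -0.30 with library totals. Hspa1b, the stress-inducible Hsp70, showed the deepest fall of those called, by 2.44 ± 0.48. It held 36.3, 7.65 and 37.1 CPM in AL and 4.02, 5.05, 5.92 and 4.83 in LC. Its near-identical neighbour Hspa1a differed by -2.81 and did not pass (adjusted p = 0.077), and the split of reads between them is uncertain. Hsp90ab1, the constitutive Hsp90, held 573, 699 and 698 CPM in AL and 349.5, 303, 347 and 382 in LC (-0.93 ± 0.13). Hsp90aa1, the inducible form, held 195, 174 and 131 in AL and 81.4, 72.8, 79.001 and 92.01 in LC (-1.04 ± 0.17). For Hspa1b, Hsp90ab1 and Hsp90aa1 the lowest AL library was above the highest LC library. Their partners moved alike: Ahsa1, which activates the Hsp90 ATPase, fell by 0.90 ± 0.15, Fkbp4, the Hsp90 cochaperone of steroid receptors, by 0.87 ± 0.14, and Cct3, a subunit of the chaperonin that folds actin and tubulin, by 0.81 ± 0.11. Hspb8, a small heat shock protein, fell by 1.08 ± 0.19.

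Heat shock factor binds inverted repeats of GAA, here searched as GAANNTTCNNGAA on both strands, which 0.537% of all tested promoters held, 0.495% of those of fallers and 0.731% of those of risers. Of the 32 listed heat shock genes with a promoter, 4 held it (12.5%): Hspd1, Hspe1, Hsph1 and Dnajb6. The mitochondrial chaperonin genes Hspd1 and Hspe1 lie head to head and share 1 stretch with overlapping matches, shown here because both genes fell; the strand is that of Hspe1, and GAA and TTC blocks are in capitals.
Hspe1, chr1:55088029-55088106, plus strand: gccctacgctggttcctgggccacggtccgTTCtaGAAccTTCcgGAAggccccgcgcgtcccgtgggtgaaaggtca
Hspd1 held 282, 408 and 389 CPM in AL and 209, 239, 214 and 271 in LC and fell by 0.62 ± 0.15, and Hspe1, its lid, fell by 0.61 ± 0.14, a call lost with the length trend removed (adjusted p = 0.055). Hspa1b, the deepest faller, held no match in its window.

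A pair of genes for cold-inducible RNA-binding proteins rose. Rbm3, among the 10 risers with the smallest p, held 47.6, 45.8 and 44.6 CPM in AL and 107, 109.5, 90.5 and 101 in LC, a rise of 1.15 ± 0.12 (adjusted p = 0.00014). Its relative Cirbp, named after its value was seen, held 13.3, 13.97 and 11.6 CPM in AL and 17.3, 25.1, 22.9 and 19.3 in LC and rose by 0.71 ± 0.15. The AL libraries were close together for both genes, and every LC library was higher. The plot of chaperones and cold-inducible genes by library shows both directions.

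**Figure D2:**
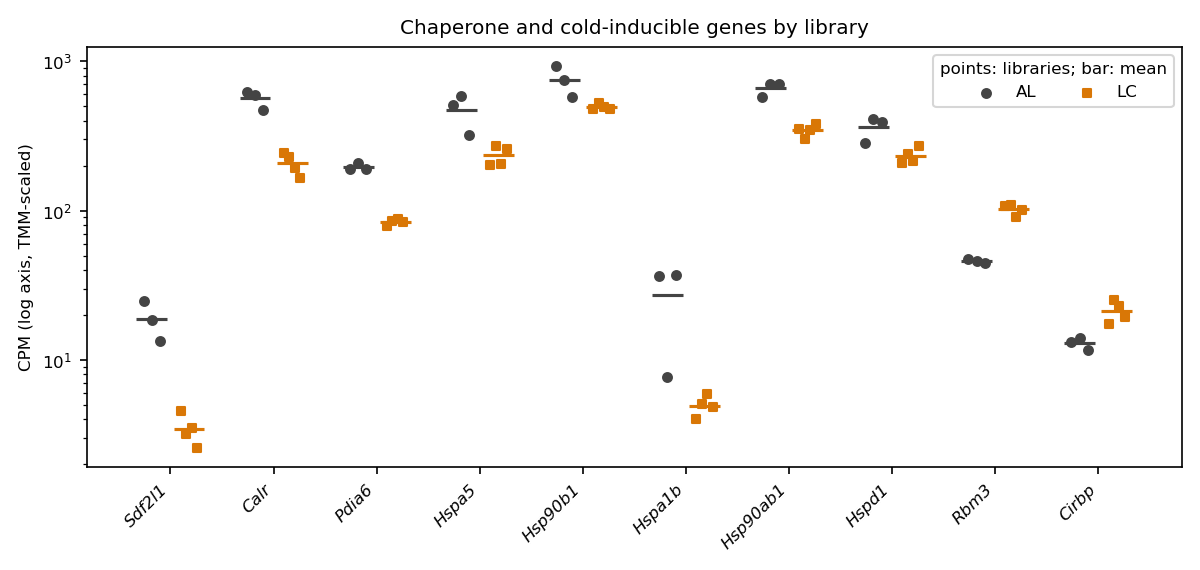
CPM (log axis) of 8 chaperone genes and 2 cold-inducible RNA-binding protein genes in each AL (circle) and LC (square) library, with a bar at the group mean. The chaperones lie lower in the 4 LC libraries, and Rbm3 and Cirbp lie higher.

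Many genes for secreted plasma proteins fell as well, though those of coagulation did so about as often as all genes of like abundance. Of 31 serpins, mostly protease inhibitors of plasma, 13 fell and 0 rose (median -0.54, -0.22 with library totals). Of 18 inter-alpha-trypsin inhibitors and carrier proteins, 11 fell and 0 rose; the count of fallers was 6 without AL replicate 3 and 6 without AL replicate 4. Fga, the alpha chain of fibrinogen, held 865, 1376 and 1481 CPM in AL and 322, 425, 396 and 452 in LC and fell by 1.64 ± 0.18, beside 0.81 ± 0.13 for Fgb and 1.06 ± 0.14 for Fgg, the other chains (all falls). Of 28 coagulation genes 9 fell and 2 rose, with a median of -0.25 that was 0.06 with library totals. Their median level was 404 CPM, and their share of fallers, 32.1%, was near that of all genes at 100 to 500 CPM, where 385 of 1203 fell. Serpins, with a median level of 106.5 CPM, had 41.9% fallers. The inhibitors and carrier proteins, at 2422 CPM, had 61.1%, beside 115 of 260 for all genes at 500 CPM or more. Serpind1, heparin cofactor II, fell by 1.04 ± 0.12, F9, clotting factor IX, by 1.03 ± 0.13, and Cpb2, which slows clot breakdown, by 1.08 ± 0.13.

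Complement split in both directions. Of 25 components and regulators tested, 11 fell and 2 rose (median -0.31, 0.00 with library totals); the count of fallers was 7 without AL replicate 3. The median level of this list was 349 CPM, and of all genes at 100 to 500 CPM, 385 of 1203 fell. Besides C9, Serping1, the C1 inhibitor, fell by 1.06 ± 0.13, Cpn1, which inactivates anaphylatoxins, by 1.01 ± 0.13, and Cfi, the protease factor I, by 0.75 ± 0.13. The risers in this list were proteases that start the cascade. C1s1 went from 622, 641 and 579.9 to 1212, 1120.3, 848 and 993 CPM (0.76 ± 0.14). Masp1, of the lectin pathway, went from 40.04, 39.5 and 36.6 to 64.9, 68.4, 53.4 and 61.5 CPM (0.68 ± 0.12). Neither overlapped between groups. The list did not hold Cfd, which fell by 3.53 ± 0.66, or the protective Cd55, which rose by 1.03 ± 0.12. C3, the central and most abundant component, differed by -0.03 ± 0.14 (adjusted p = 0.87), with 2645, 2932 and 2792 CPM in AL and 2788, 2585, 2501 and 3026 in LC, which overlapped.

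Genes of cytosolic and mitochondrial ribosomes differed in the direction of their calls. Of 83 cytosolic ribosomal protein genes, 21 rose and 4 fell (median 0.19); the count of risers was 1 without AL replicate 3, 2 without AL replicate 4, 7 without LC replicate 4 and 12 without RF replicate 3, and with the RF libraries left out of the model it was 8. Of 78 mitochondrial ribosomal protein genes, 1 rose and 33 fell (median -0.34, -0.03 with library totals). Both lists hold short genes, with median implied lengths of 454 and 796 bases against 2525 over all tested; with the length trend removed the medians were 0.41 and -0.12. Rps12, of the small cytosolic subunit, held 255, 184 and 191 CPM in AL and 303, 321, 288 and 399 in LC and rose by 0.65 ± 0.15. Rps2 went against its list, from 813, 1013 and 1079 to 562, 676, 669 and 687 CPM (-0.58 ± 0.14), a call lost with the length trend removed (adjusted p = 0.059). Mrpl42, of the large mitochondrial subunit, held 52.1, 56.8 and 55.6 CPM in AL and 29.96, 34.2, 29.4 and 28.2 in LC and fell by 0.85 ± 0.11. Mrpl1 fell by 0.79 ± 0.12 and Mrpl21 by 0.95 ± 0.15, again without overlap. Of 64 initiation and elongation factors, 19 fell and 5 rose, with a median of -0.21 that turned to 0.10 with library totals; the count of fallers was 6 without AL replicate 3 and 7 without AL replicate 4, and of risers 2 in either case. Eif5a, which eases peptide bond formation at prolines, fell by 0.81 ± 0.15, Eif2s1, the alpha subunit of eIF2, by 0.76 ± 0.15, and Eif4ebp2, an eIF4E inhibitor, by 1.28 ± 0.21 at levels under 6 CPM. The plot of ribosomal genes shows the lists side by side.

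**Figure D3:**
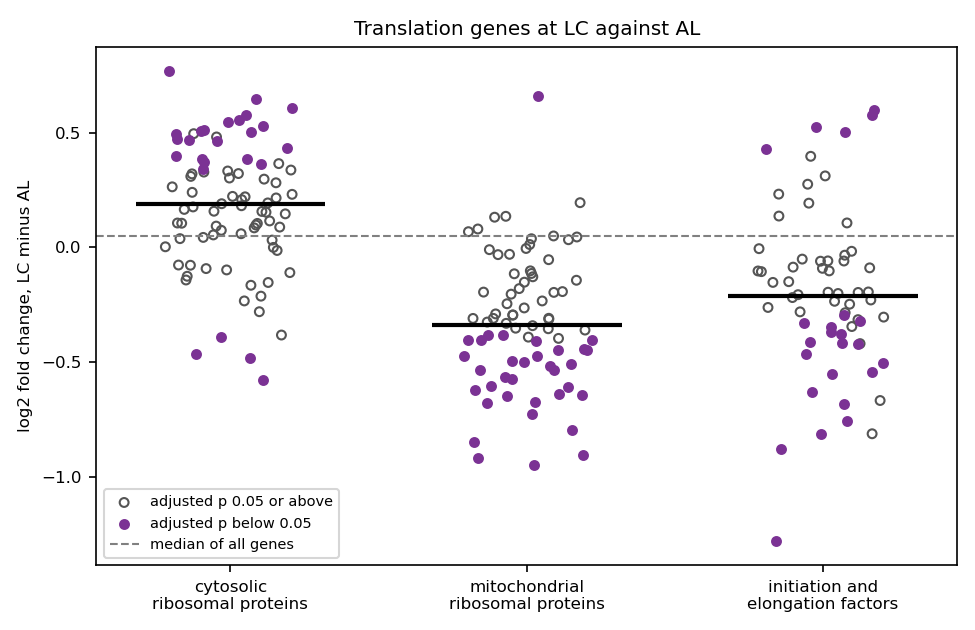
Fitted log2 fold change (LC minus AL) of each tested gene of 3 translation lists, 1 point a gene, filled where the edgeR adjusted p was below 0.05, with a bar at the list's median and a dashed line at the median of all 12789 genes (0.05). Cytosolic ribosomal proteins lie mostly above 0 and mitochondrial ones mostly below.

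In a list of tricarboxylic acid cycle genes that also holds the cytosolic Mdh1, 14 of 21 tested fell and 0 rose. The median was -0.64 (-0.33 with library totals), and the count of fallers was 9 without AL replicate 4. Mdh1, cytosolic malate dehydrogenase of the malate shuttle, held 434, 657 and 697 CPM in AL and 201, 318, 246 and 235 in LC and fell by 1.25 ± 0.18. Its mitochondrial form Mdh2 fell by 0.88 ± 0.14, Sdhc, of succinate dehydrogenase, by 0.70 ± 0.12, and Idh3b, of isocitrate dehydrogenase, by 0.76 ± 0.13. All of their LC libraries were below all AL libraries. Of 40 genes for protein import and mitochondrial shape, 15 fell and 1 rose, with a median of -0.25 that turned to 0.08 with library totals; the count of fallers was 9 without AL replicate 3. Grpel1, the nucleotide exchange factor of mitochondrial Hsp70, fell by 0.99 ± 0.15. Among SLC25 carriers of the inner membrane, 5 of 41 rose and 11 fell; the count of risers was 2 without AL replicate 3 and 3 without AL replicate 4, and that of fallers 4 and 7. Slc25a37, mitoferrin-1, which brings in iron, rose from 55.6, 71.9 and 71.7 to 136, 131, 99.8 and 113 CPM (0.85 ± 0.14), and Slc25a5, an ADP/ATP exchanger, fell from 219.5, 407 and 464 to 136, 179.9, 162 and 175 CPM (-1.15 ± 0.20).

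Conjugating enzymes mostly fell. Of 22 glutathione transferases tested, 17 fell and 0 rose (median -0.86, -0.54 with library totals). Gstm6 held 78.8, 116 and 105 CPM in AL and 35.4, 34.1, 30.1 and 28.9 in LC, a fall by 1.64 ± 0.14 (adjusted p = 5.1e-05). Gstk1, the mitochondrial and peroxisomal form, went from 179, 261 and 227 to 78.6, 106, 77.01 and 90.1 CPM (-1.34 ± 0.16), and Gsta4, which detoxifies the lipid peroxidation product hydroxynonenal, from 74.8, 84.6 and 89.9 to 32.3, 41.4, 50.6 and 35.5 CPM (-1.06 ± 0.16). The LC libraries were lower throughout. The abundant Gstp1 lay the other way, at 0.65 ± 0.24 (adjusted p = 0.06), with overlapping groups, and passed without AL replicate 2 (adjusted p = 0.013) or LC replicate 2 (0.015), with DESeq2 (0.033), with the length trend removed (0.016), with library totals (0.015) and in both limma fits on FPKM. Of 17 glucuronosyltransferases, 10 fell and 1 rose (median -1.05). Ugt2b1 held 262, 314 and 249 CPM in AL and 121, 132, 139 and 142 in LC and fell by 1.05 ± 0.14, and Ugt3a1, which uses other sugars than glucuronic acid, fell by 1.24 ± 0.19. Ugt1a8 rose by 0.79 ± 0.16, but Ugt1a genes share their last exons, so the counting program may have split their reads unevenly. The same holds for close copies among Gstm and Gsta genes.

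Of 44 cytochromes P450 of families 1 to 3, which oxidise drugs, steroids and fatty acids, 11 fell and 4 rose (median 0.07). The risers included Cyp2b9 and Cyp2j9, given above. Cyp2c70, which makes muricholic acids in mice, held 154, 141 and 213 CPM in AL and 47.7, 70.4, 43.2 and 47.7 in LC and fell by 1.70 ± 0.23. Cyp1a2, which clears caffeine, fell by 0.94 ± 0.15, and Cyp2j5, an arachidonic acid epoxygenase, by 1.31 ± 0.17. Of 31 NRF2 targets and glutathione genes, 12 fell and 1 rose, and the count of fallers was 6 without AL replicate 4. The median level of this list was 142.6 CPM, and that of the P450 list was 113.5 CPM. Of all genes at 100 to 500 CPM, 385 of 1203 fell. Fallers were less frequent than that among the P450 genes and only somewhat more frequent among the NRF2 and glutathione genes. Prdx3, the mitochondrial peroxiredoxin, went from 79.1, 127 and 128 to 45.8, 53.7, 47.5 and 54.04 CPM (-1.15 ± 0.16), Hmox1, haem oxygenase, fell by 1.31 ± 0.19, and Cat, catalase, by 0.79 ± 0.15. In bulk tissue, fewer cells of a type and less of an RNA per cell cannot be told apart.

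The largest block of risers was nuclear. Of 388 zinc finger proteins of the C2H2 kind, most of them presumed DNA-binding repressors, 120 rose and 8 fell (median 0.47, 0.40 with the length trend removed); the count of risers was 50 without AL replicate 3, 62 without AL replicate 4 and 76 without LC replicate 1, and that of fallers 4 without AL replicate 3. Since the share of risers changed with abundance and length over all genes, the Zfp genes are also given within bins of abundance and length. At 20 to 50 CPM, 22 of 38 Zfp genes rose (57.9%) against 20.1% of the other genes, at 10 to 20 CPM 38.5% against 17.9%, at 5 to 10 CPM 32.9% against 17.0%, and under 2 CPM 10.6% against 10.3%. At 100 to 500 CPM 0 of 4 Zfp genes rose and 1 fell. Over the length bins from the shortest to the longest, 8.33%, 40.5%, 35.0%, 33.3% and 33.7% of the Zfp genes rose. The shares of all genes that rose in the same bins were 5.56%, 11.9%, 16.8%, 22.6% and 25.5%. The shortest bin held 12 Zfp genes, of which 1 rose. Zfp354a, a kidney and liver KRAB protein, held 8.38, 8.35 and 8.62 CPM in AL and 28.1, 16.4, 24.4 and 25.6 in LC and rose by 1.48 ± 0.18 (adjusted p = 0.00024). Zfp715 went from 32.04, 22.005 and 19.9 to 61.98, 60.1, 50.1 and 54.7 CPM (1.20 ± 0.18), and Zfp276 from 45.8, 33.3 and 37.7 to 94.6, 98.1, 60.2 and 78.2 CPM (1.09 ± 0.18). AL replicate 2 was the highest AL library for Zfp715 and Zfp276, and still below every LC library.

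**Figure D4:**
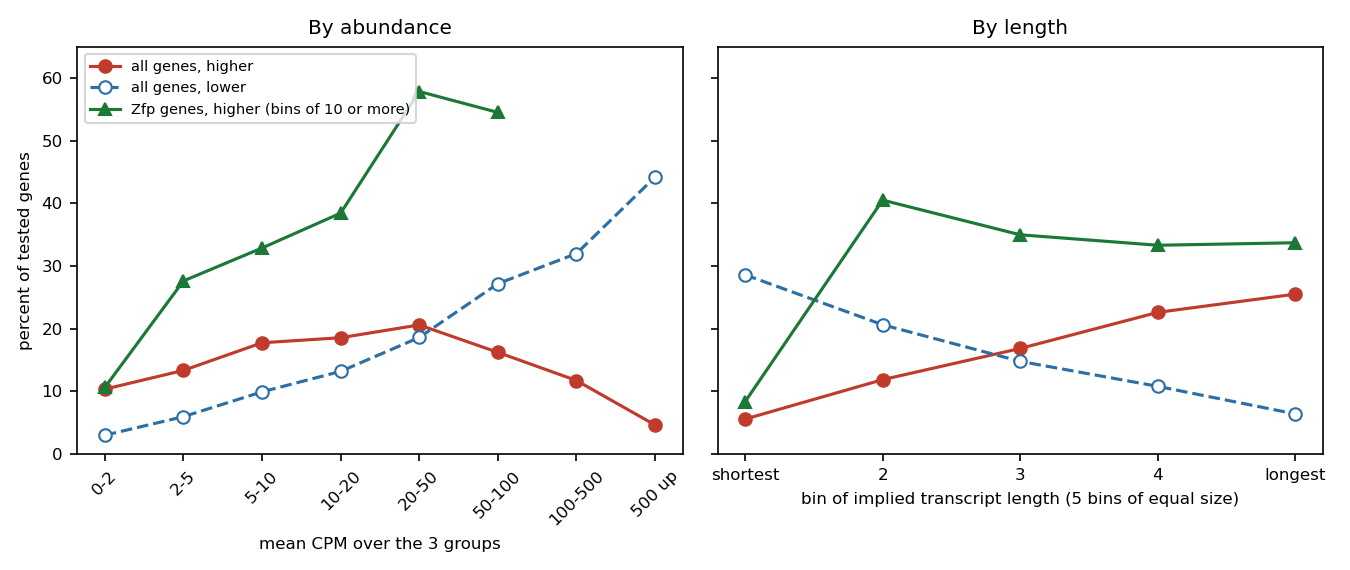
Share of genes that rose (filled) or fell (open) at LC by mean CPM (left) and by 5 equal bins of implied transcript length (right), for all genes and, for risers, the Zfp genes alone; shares in percent. In the bin of 20 to 50 CPM 57.9% of Zfp genes rose.

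Many genes for chromatin proteins rose. Of 51 histone methyltransferases and demethylases, 19 rose and 1 fell (median 0.39); the count of risers was 11 without AL replicate 3 and 11 without AL replicate 4. Of 108 remodelling, acetylation and deacetylation genes, 30 rose and 6 fell (median 0.25); the count of risers was 14 without AL replicate 3 and 19 without AL replicate 4, and that of fallers 1 without AL replicate 3. Both lists hold long genes (median implied lengths 5698 and 3448 bases), and with the length trend removed their medians were 0.20 and 0.14. Risers made up 37.3% and 27.8% of them. Among all genes, 25.5% rose in the longest bin and 22.6% in the bin of 2988 to 4379 bases. Arid1a, the DNA-binding subunit of the BAF remodeller, held 39.8, 28.9 and 35.4 CPM in AL and 77.7, 55.95, 72.3 and 64.8 in LC and rose by 0.96 ± 0.15. Ehmt2, which methylates histone H3 lysine 9, went from 85.6, 68.8 and 76.2 to 139.9, 133, 109 and 128 CPM (0.73 ± 0.13), Kmt2b, a lysine 4 methyltransferase, from 48.6, 33.7 and 35.7 to 76.99, 84.3, 61.8 and 60.9 CPM (0.85 ± 0.16). No AL library reached the lowest LC library for these genes. Med12, of the Mediator kinase module, rose by 0.86 ± 0.15, and Kmt5c, a lysine 20 methyltransferase of histone H4, by 1.04 ± 0.18.

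Some RNA processing genes rose. Of 33 SR and hnRNP proteins, which choose splice sites, 9 rose and 4 fell; the count of risers was 5 without AL replicate 3. Srsf5 held 155, 191 and 166 CPM in AL and 410.4, 294, 293 and 327 in LC and rose by 0.96 ± 0.18, Hnrnph1 went from 140.1, 96.9 and 106 to 260.1, 194, 185 and 205 CPM (0.88 ± 0.16), and Srrm1, a splicing coactivator, rose by 0.78 ± 0.13. In the spliceosome core 7 of 52 rose and 9 fell, shares near those of all genes, and the count of risers was 4 without AL replicate 3 and 4 without AL replicate 4; Prpf40b, a U1 factor, rose by 1.16 ± 0.19, and Snrpa, a U1 protein, fell by 0.73 ± 0.17. Clk1, the kinase that phosphorylates SR proteins, and Rbm5, a splicing repressor, both named after their values were seen, rose by 1.00 ± 0.20 and 1.19 ± 0.20.

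Enzymes that remove or ligate ubiquitin held more risers than fallers, while the symbol family Ube, mostly conjugating enzymes, had 2 risers and 10 fallers of 37. Of 43 ubiquitin-specific proteases, 17 rose and 2 fell; the count of risers was 5 without AL replicate 3 and 9 without AL replicate 4. Usp20, which removes ubiquitin from the cholesterol enzyme HMG-CoA reductase, held 8.60, 9.05 and 10.1 CPM in AL and 18.7, 18.3, 16.2 and 18.9 in LC and rose by 0.96 ± 0.13. Usp28 went from 10.1, 11.2 and 10.3 to 21.7, 20.8, 17.8 and 18.9 CPM and Usp36, of the nucleolus, from 53.1, 29.96 and 28.9 to 82.5, 80.1, 69.5 and 75.6 CPM. The groups did not overlap for any of them. Of 102 RNF and TRIM ligases, 29 rose and 12 fell; the count of risers was 13 without AL replicate 3 and 18 without AL replicate 4. The members of that list with the smallest p were fallers, Rnf6 by 0.84 ± 0.13 and Rnf11 by 0.96 ± 0.16. Trim62, an E3 ligase, rose by 1.42 ± 0.29.

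Lysosomal and autophagy genes moved little as groups, and their leading members fell. Of 40 autophagy genes 10 fell and 4 rose (median -0.02, 0.29 with library totals). Sqstm1, the p62 cargo receptor, held 295, 319.8 and 361 CPM in AL and 192, 174, 174 and 194 in LC and fell by 0.83 ± 0.12. Gabarapl1, which is lipidated onto the autophagosome, went from 246, 303 and 356 to 153, 171, 179.9 and 154 CPM, and Atg5 fell by 0.74 ± 0.12. Of 31 V-ATPase subunits and cathepsins, 8 fell and 4 rose; Ctsb, cathepsin B, fell by 0.93 ± 0.14 and Ctsl by 0.77 ± 0.13. The groups were apart for all 5 of these genes.

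Among signalling genes, risers included an activin subunit and genes of the Wnt pathway. Inhba, the activin A subunit, held 3.78, 2.58 and 4.00 CPM in AL and 15.2, 6.34, 9.37 and 9.67 in LC and rose by 1.55 ± 0.33; 7 of 32 TGF-beta and BMP pathway genes rose and 0 fell, and the count of risers was 2 without AL replicate 3 and 4 without AL replicate 4. In the Notch and Wnt list 7 of 37 rose and 1 fell, and the count of risers was 3 without AL replicate 3. Risers were 18.9% of this list and 21.9% of the TGF-beta and BMP list, beside 16.0% of all genes. The median implied lengths of these lists were 4077 and 3330 bases. In the length bin of 2988 to 4379 bases, 22.6% of all genes rose. With the length trend removed both list medians were 0.12. Lgr5, a Wnt-amplifying receptor of central-vein hepatocytes, went from 8.16, 9.05 and 8.55 to 14.7, 16.9, 11.6 and 14.5 CPM (0.75 ± 0.19), and Tcf7l2, the transcription factor of Wnt targets, from 21.4, 20.8 and 22.8 to 33.2, 36.3, 30.2 and 34.8 CPM (0.63 ± 0.13). The LC libraries were higher throughout. Axin2, a direct Wnt target named after its value was seen, rose by 1.49 ± 0.44, with adjusted p 0.086 without AL replicate 2, 0.11 without AL replicate 3, 0.051 without LC replicate 1 and 0.053 without LC replicate 4. Socs3, a feedback inhibitor of cytokine signalling, held 12.2, 8.66 and 7.38 CPM in AL and 44.5, 16.3, 22.7 and 29.4 in LC and rose by 1.59 ± 0.31. Igf1, the main growth hormone product of the liver, differed by -0.03 ± 0.14 (adjusted p = 0.88), with 836, 795 and 632 CPM in AL and 752, 781, 753 and 667 in LC.

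Some receptors and transporters that sense nutrients also changed, though the shares of risers in their lists were near those of all genes or of genes of like length. Of 37 nuclear receptors, 8 rose and 1 fell, and the count of risers was 5 without AL replicate 3 and 5 without AL replicate 4. Risers made up 21.6% of this list, beside 16.0% of all genes. Nr1h4, the bile acid receptor FXR, rose from 263, 240.4 and 244 to 392, 438, 357 and 371 CPM (0.65 ± 0.13), and Pparg fell from 17.4, 20.4 and 20.9 to 10.9, 12.9, 12.3 and 11.3 CPM (-0.72 ± 0.18). Nr1i3, the xenobiotic receptor CAR, held 269, 356 and 284 CPM in AL and 653, 691, 561 and 679.8 in LC and rose by 1.09 ± 0.14 (adjusted p = 0.0003). Nr1h4 and Nr1i3 were higher in every LC library than in any AL library. Of 48 insulin and FOXO pathway genes, 11 rose and 6 fell; the count of risers was 5 without AL replicate 3 and 4 without AL replicate 4, and that of fallers 2, 3 and 3 without AL replicate 3, AL replicate 4 and LC replicate 1. Rheb, the GTPase that activates mTORC1, fell by 0.63 ± 0.13, and Sesn1, which restrains mTORC1, rose by 0.55 ± 0.13. Of 33 amino acid transporters, 8 rose and 4 fell. Risers were 22.9% of the insulin and FOXO list and 24.2% of the transporter list, with median implied lengths of 4376 and 3103 bases. Of all genes in the length bin of 2988 to 4379 bases, 22.6% rose. Slc1a5, the glutamine exchanger, went from 5.19, 4.14 and 4.00 to 21.6, 9.91, 8.72 and 15.2 CPM (1.64 ± 0.29), and Slc38a9, the lysosomal arginine sensor, from 20.02, 17.9 and 17.7 to 32.7, 31.6, 29.996 and 26.1 CPM (0.70 ± 0.12). The plot of signalling and transport genes shows each library.

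**Figure D5:**
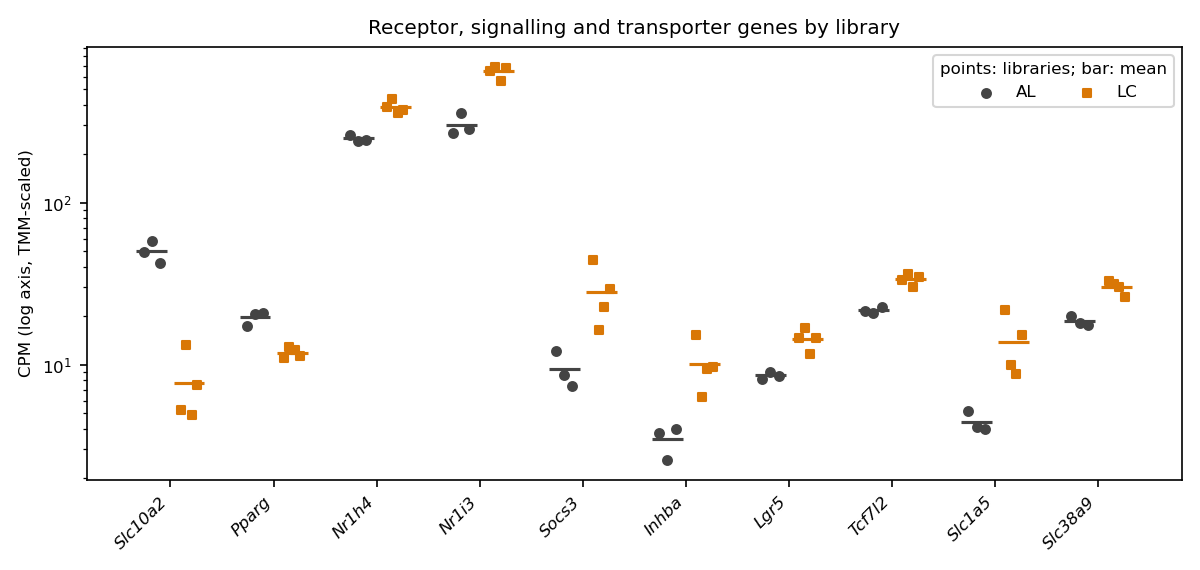
CPM (log axis) of 10 receptor, signalling and transporter genes in each AL (circle) and LC (square) library, with a bar at the group mean. Slc10a2 and Pparg lie lower in LC, and the other 8 lie higher.

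Hepatocyte genes of both zones of the lobule included many fallers. Of 27 genes of hepatocytes near the portal vein, 14 fell and 0 rose (median -0.61). Of 33 genes of those near the central vein, 14 fell and 4 rose (median -0.35, -0.02 with library totals); the count of fallers was 7 without AL replicate 3 and 8 without AL replicate 4. Ass1, of the urea cycle, held 2030.2, 2570.2 and 2619.6 CPM in AL and 744, 972, 647 and 541 in LC (-1.73 ± 0.19), and Oat, ornithine aminotransferase of the central zone, 1568, 3040.2 and 1814 in AL and 676, 632, 437 and 536 in LC (-1.91 ± 0.23). The lowest AL library was more than 2-fold above the highest LC library in both. Of 14 hepatocyte markers, 9 fell and 0 rose. The portal, central and marker lists hold abundant genes, with median levels of 387, 354 and 3124 CPM. Fallers made up 51.9%, 42.4% and 64.3% of them. Of all genes, 385 of 1203 fell at 100 to 500 CPM and 115 of 260 at 500 CPM or more.

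Markers of other liver cells moved in their own directions. Of 17 markers of sinusoidal endothelium, 8 rose and 0 fell (median 0.33); the count of risers was 5 without AL replicate 3. Stab2, a scavenger receptor, held 51.02, 41.2 and 41.2 CPM in AL and 88.6, 94.1, 75.1 and 86.4 in LC (0.95 ± 0.13), Stab1 rose by 0.84 ± 0.14, and Egfl7 by 1.02 ± 0.13. The pan-endothelial Pecam1, at 7.86, 10.5 and 10.7 CPM in AL and 9.92, 7.69, 11.7 and 8.66 in LC, differed by -0.03 ± 0.18 and did not pass (adjusted p = 0.92). Of 15 Kupffer cell and macrophage markers, 3 fell and 0 rose: Mpeg1, a pore-forming protein, fell by 1.03 ± 0.20, and Lyz2, lysozyme, by 1.42 ± 0.33. The defining Kupffer marker Clec4f held 63.2, 42.1 and 57.8 CPM in AL and 54.8, 62.5, 93.6 and 86.99 in LC and did not pass (adjusted p = 0.1). It passed as higher at LC without LC replicate 1 (0.042), with library totals (0.018) and in both limma fits on FPKM (0.022 and 0.021). Of 14 stellate cell markers 1 rose and 1 fell, of 8 bile duct markers 2 rose and 0 fell, and of 6 adipocyte markers 1 rose and 3 fell. The part of cell composition in any result was not tested.

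Many genes of antigen presentation fell, and some interferon-stimulated genes did. Of 23 MHC genes 13 fell and 3 rose (median -0.39); the count of fallers was 6 without AL replicate 4 and 8 without LC replicate 4. H2-Q10, the secreted class I protein of mouse liver, held 3333, 3679.8 and 3843 CPM in AL and 2220.2, 2747, 1588 and 2178 in LC and fell by 0.73 ± 0.16. Class II genes fell as well, H2-Eb1 by 0.84 ± 0.22, while Nlrc5, the class I transactivator, rose by 0.77 ± 0.16. Of 40 interferon-stimulated genes, 10 fell and 5 rose (median -0.27, 0.03 with library totals); the count of risers was 3 without AL replicate 3. Cxcl9, a chemokine for T cells, went from 9.94, 9.29 and 9.24 to 1.70, 2.59, 3.07 and 2.95 CPM (-1.87 ± 0.28), and Cxcl10 from 5.56, 3.51 and 4.76 to 1.70, 1.79, 1.56 and 2.45 CPM. Irf7 rose by 0.67 ± 0.14.

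Matrix and vesicle traffic genes held calls in both directions. Of 52 collagens and matrix proteoglycans, 12 rose and 4 fell, but the median of 0.19 turned to -0.08 with the length trend removed, and these are long genes (median implied length 5380.0 bases). Lama5, a basement membrane laminin, held 7.56, 5.23 and 6.90 CPM in AL and 15.7, 16.2, 16.05 and 17.95 in LC and rose by 1.32 ± 0.17, and Agrn, agrin, went from 85.9, 66.6 and 65.1 to 155, 184, 129.8 and 144 CPM (1.08 ± 0.15). Of 27 ADAM and ADAMTS proteases, 8 rose and 0 fell; the count of risers was 5 without AL replicate 3 and 5 without AL replicate 4. Of 44 RAB GTPases of vesicle traffic, 12 fell and 4 rose, with a median of -0.14 that turned to 0.18 with library totals. Rab5b, of early endosomes, fell from 36.6, 54.7 and 50.6 to 26.2, 19.1, 23.3 and 19.96 CPM (-1.09 ± 0.16).

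Families were also formed without choosing genes, from the letters that begin a symbol, which gave 145 families of 10 or more tested genes. The 10 with the lowest medians were Mup (-1.26), Ugt (-1.02), Hspa (-0.68), Mcm (-0.59), Cyb (-0.59), Aldh (-0.55), Serpina (-0.50), Alg (-0.48), Timm (-0.43) and Akr (-0.42). The 10 with the highest were Phf (0.60), Sema (0.58), Zcchc (0.56), Akap (0.52), Prr (0.50), Zfp (0.48), Trim (0.47), Adamts (0.45), Ankrd (0.44) and Hdac (0.43). The lowest, the major urinary proteins, are pheromone carriers made in the liver whose near-identical copies share reads. Their sum over all tested members ran from 82521 to 142670 CPM in AL and from 37373 to 74248 in LC. Of the 20 Mup genes 8 fell, 1 rose and 11 were not called. Aldehyde dehydrogenases (Aldh) had 0 risers and 8 fallers of 16, and semaphorins (Sema), guidance proteins, 6 risers and 0 fallers of 16. Plant homeodomain finger proteins (Phf), readers of histone methylation, had 11 and 1 of 22, and A-kinase anchoring proteins (Akap), which place protein kinase A in the cell, 5 and 0 of 12. Without AL replicate 3 the risers numbered 7 in Phf, 3 in Sema and 3 in Akap. With library totals, which raise all genes, the medians of the 10 low families stayed below 0.

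Dividing each expected count by its FPKM and the library total gives, if FPKM was computed as count per length and library total, the mean transcript length assigned to a gene, which shifts when isoforms of different length change place. This measure was chosen after the other results were seen. Over 8946 genes, 33 (0.369%) changed by at least 1.1-fold with a limma adjusted p below 0.05, 19 longer and 14 shorter at LC. Nars2, mitochondrial asparaginyl-tRNA synthetase, had mean lengths of 4744, 4146 and 4215 bases in AL and 7887, 7251, 6565 and 7283 in LC, which did not overlap. Cd55, a riser in abundance as well, went from 3477, 3526 and 3579 to 4166, 4301, 4019 and 4204 bases. These calls are fragile: none remained without AL replicate 3 or AL replicate 4, where 1122 and 808 genes had an unadjusted limma p below 0.05, and without AL replicate 2 there were 47 longer and 90 shorter.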

How the data were processed

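The deposited tables give, per the file headers, expected counts and FPKM (fragment counts scaled by gene length and library size) for each gene in each library; the authors made both before deposit. Per the labels' protocols the libraries were poly(A)-selected and not strand-specific and were read on a DNBSEQ instrument, so reads of a gene and an overlapping antisense gene cannot be told apart. HISAT, Bowtie2 and build GRCm39 are named in the submitters' processing notes; no source used here names the counting program or the annotation. Of the deposited expected counts 10.9% were not whole, and all were rounded. Genes were filtered with edgeR's filterByExpr, leaving 12789, scaled by TMM and tested with edgeR 4.0.16 (quasi-likelihood, robust) in R 4.3.3, with 1 mean per group over all 10 libraries. DESeq2 1.42.0, and limma 3.58.1 on log2(FPKM + 1) and log2(FPKM + 0.1), were alternatives; limma also tested the implied lengths (genes with FPKM of at least 1 and 50 counts in every library). The fits were also run on simulated data with known changes in a small part of the genes, which does not test the choice of scaling. All members, lists and motifs were chosen with earlier results of these data known. Gene groups are described by counts and medians, with no set test. Genes named are the 20 largest rises and 20 largest falls among called genes with 5 CPM or more in the higher group and no overlap, the 10 of smallest p each way, up to 6 of smallest p in each group, any member of a group of 25 or fewer, genes that hold a searched motif, and those said to be named after their values were seen; not all are printed. The totals of 13871500 to 15899500 limit the precision for scarce genes.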

Additional observations from a re-analysis of the deposited data

Results flagged for a closer look

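In the 4 LC libraries, 4 of 155 values tested (the levels of the genes named above and 4 library measures) had 1 library far from the others, its gap to the nearest being a larger share of the whole range than Dixon's 95% critical value (chance alone marks about 1 value in 20). Rps2, of the small ribosomal subunit, held 562 CPM in LC replicate 1 against 669 to 687 in the other LC libraries. Mdh2, malate dehydrogenase, held 122 CPM in LC replicate 1 against 133 to 134 in the others. Cyp2c70, the muricholic acid enzyme, held 70.4 CPM in LC replicate 2 against 43.2 to 47.7. Med12, of Mediator, held 64.0 CPM in LC replicate 3 against 57.9 to 58.7. In each case the outlying value stayed on the same side of all 3 AL libraries. The AL group, with 3 libraries, was not tested.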

How the results depend on the processing

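Scaling had the largest effect on the split of calls. Library totals gave 4395 higher and 686 lower, and limma on the deposited values gave 4291 and 708 with log2(FPKM + 1) and 4294 and 715 with log2(FPKM + 0.1). Asking for a change of at least 2-fold left 486 and 332. DESeq2 called 2002 and 2247, relative log expression factors 1896 and 2123, the AL and LC libraries alone 1672 and 1838, and removal of the length trend 1691 and 1886, all within 1.5 times the main counts. Leaving out 1 library gave 959 to 2186 genes higher and 1151 to 2167 lower, the fewest in each without AL replicate 3. With the replicate block the counts were 1957 and 1901. Same-numbered AL and LC libraries had correlations of 0.016, -0.0462 and 0.0654 between their deviations from the group means. Pairs with different numbers ranged from -0.126 to 0.109, so with so few libraries this check cannot tell whether the numbers pair the samples. For the implied lengths, the count of longer genes ran from 0 to 47 and of shorter genes from 0 to 90 when 1 library was left out, was 1 and 0 with the AL and LC libraries alone, and 1 and 1 with the replicate block. The causes of these shifts were not tested, beyond the shift of the median that the scaling itself makes.

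Of the 151 named genes followed across the settings, 143 were called, and 17 of those lost the call in at least 1 of the settings. No gene that changed direction was called in the main model or in that setting. Herpud1 turned to 0.024 with log2(FPKM + 1) and 0.024 with log2(FPKM + 0.1). C3 turned to 0.28 with library totals, 0.26 with log2(FPKM + 1) and 0.26 with log2(FPKM + 0.1), Igf1 to 0.28, 0.30 and 0.30, Pecam1 to 0.30, 0.21 and 0.26, and Ero1b to 0.19, 0.21 and 0.23 in the same settings. With 1 library left out, C3 ranged from -0.086 to 0.0067, Igf1 from -0.14 to 0.047, Pecam1 from -0.16 to 0.061 and Ero1b from -0.21 to 0.015.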
